A study of Pomacea canaliculata with 36 samples.

Results

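A set of 140 genes of the apple snail *Pomacea canaliculata*, out of 21131 genes counted in its eye stalk, had a low level at 12 days post amputation (dpa) between higher levels at 9dpa and 15dpa. The members were chosen on CPM, that is, read counts of a gene relative to the total of its library, scaled by TMM factors, averaged over the 4 libraries of each group. A member had at least 5 CPM at 9dpa and at 15dpa, kept at most 50% of both of these levels at 12dpa, had every 12dpa library below every 9dpa and 15dpa library, and held more than 12.5% of its Intact level at 6dpa. Of the 11768 genes that could have met the rule by their levels at 6, 9 and 15dpa, the 140 are 1.19%. The dip is therefore what selected the genes, and its values are given as a description with no test. The levels at 1, 3, 21 and 28dpa played no part in the choice, apart from Intact as the bound at 6dpa, and the tests below are on those groups.

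The animal carries a camera-type eye, with a lens, a cornea and a retina, at the tip of a stalk beside the tentacle, and can grow the eye back after amputation. In regeneration of this kind the wound first closes, a growing tissue of less specialised cells then forms at the cut surface, and the parts of the organ are rebuilt from it and mature. The locus identifiers of the members carry no product name in the sources used here, so that no role is given to any of them and the labelled tissue was not checked against marker genes.

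Polyadenylated RNA of eye stalks was sequenced in 9 groups of 4 libraries: unamputated stalks (Intact), and stalks at 1, 3, 6, 9, 12, 15, 21 and 28dpa. The labels give no strain, age or sex, no treatment other than the amputation, and give no word on whether the 4 libraries of a group stand for separate animals or pools. A p-value here is measured against the spread among these libraries, which may be technical. Library totals lay between 21797015 and 32928737 counts, and 1 CPM stood for at least 19.2 counts. The 12dpa libraries had the highest mean total of all groups, with 28116602 to 32928737 counts, against 22403557 to 25688319 counts in Intact libraries. In bulk tissue, fewer cells of a type and less RNA per cell cannot be told apart. Since CPM grows with transcript length, levels are compared between libraries and not between genes.

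The median level of the members was low at 1dpa, near Intact at 9dpa, low once more at 12dpa and near Intact again at 15dpa. The median member stood at 99.8 ± 7.07% of its Intact mean in Intact libraries, 28.8 ± 6.30% in 1dpa libraries, 47.0 ± 10.8% in those of 3dpa and 68.6 ± 12.4% in those of 6dpa (mean ± SD over 4 libraries of the median over members). It then stood at 97.0 ± 8.08% in 9dpa libraries, 35.6 ± 5.51% in 12dpa libraries and 99.2 ± 6.25% in 15dpa libraries, and ended at 126 ± 17.5% in 21dpa libraries and 123 ± 1.68% in 28dpa libraries. The 12dpa libraries, at 28.7 to 41.1%, lay in the range of the 1dpa and 3dpa libraries and below every library of the other 6 groups. Over the 11768 genes that could have met the rule, the same median stayed between 99.0 and 110.3% of Intact in the group means, and it was 102.9% at 12dpa.

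**Figure D1:**
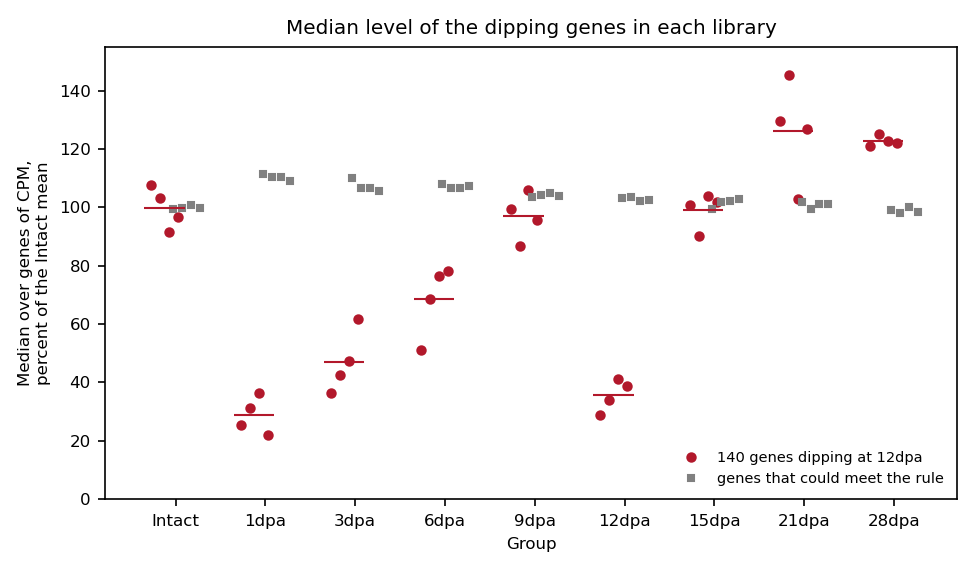
Median over genes of the level in each library, in percent of the gene's Intact mean, by group in order of time. Round points are the 140 dipping genes and square points the genes that could have met the rule, 1 point for each of 4 libraries. The 12dpa libraries sit between 28.7 and 41.1% for the dipping genes, below all libraries of 6, 9, 15, 21 and 28dpa.

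Summed over the 140 members, the level was 9225, 7611, 6929 and 8231 CPM in the Intact libraries, 2626, 2878, 3171 and 2341 CPM at 1dpa, 2155, 2657, 2995 and 4609 CPM at 3dpa and 3366, 5188, 5623 and 5617 CPM at 6dpa. It was 7878, 6622, 8693 and 7286 CPM at 9dpa, 2104, 2608, 2721 and 2829 CPM at 12dpa and 7285, 5964, 8432 and 7515 CPM at 15dpa. It was 10545, 10619, 6684 and 10646 CPM at 21dpa and 8764, 9411, 9144 and 11136 CPM at 28dpa. The range of the 12dpa libraries overlapped with those of 1dpa and 3dpa and with no other. At 21dpa replicate 3 was far below the other 3 libraries, and at 3dpa replicate 4 was well above them. Taken singly, 80 of the 140 members had their lowest 21dpa library in replicate 3, so that the sum does not stand for every member. The members took 0.797 ± 0.0898% of the raw read counts at 9dpa, 0.253 ± 0.0299% at 12dpa and 0.755 ± 0.103% at 15dpa (SD, n = 4 each).

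Individual members differed in depth. At 12dpa a member kept a median of 42.1% of the lower of its 9dpa and 15dpa means, with quartiles of 33.0 and 46.0% and a range of 9.10 to 49.8%. Just inside the limit of 50% lay LOC112569003 at 49.8% and LOC112564995 at 49.7%, and just outside it LOC112564733 and LOC112572104, both at 50.1%. The condition at 6dpa alone kept out LOC112568590, which held 9.26% of its Intact level at 6dpa. At 12dpa this gene kept 19.3% of its 9dpa level, the lower neighbour, and 10.9% of its 15dpa level. The ratio of 15dpa to 9dpa had a median of 0.983 (range 0.631 to 2.06). The median member stood at 100.5% of Intact at 9dpa and at 101.2% at 15dpa, but single members lay between 37.8 and 1016% of Intact at 9dpa and between 26.6 and 1079% at 15dpa.

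The dip was below Intact in 137 of the 140 members, and 12dpa was under 50% of Intact in 112. The exceptions were LOC112565444, LOC112569003 and LOC112573791, whose 12dpa means were 427.6, 152.2 and 179.5% of Intact. All 3 were higher at 3dpa than in Intact in the test described below, most of all LOC112565444, a log2 fold change of 2.67 ± 0.54 (SE, edgeR adjusted p = 7.33e-05). Set against the first days, the 12dpa mean was below the 1dpa mean in 54 members and above it in 86, and below the 3dpa mean in 110. The lowest of the 9 group means was at 1dpa in 76 members, at 12dpa in 50, at 3dpa in 12 and in Intact in 2, and the highest was at 21dpa in 50, at 28dpa in 36, in Intact in 27 and at another time in 27. In 8 members all 4 libraries at 12dpa were below all 32 others. The rule had already placed the 12dpa libraries below those of both neighbouring time points, so that these counts are in part set by the choice. No matching share over all genes is given for them.

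**Figure D2:**
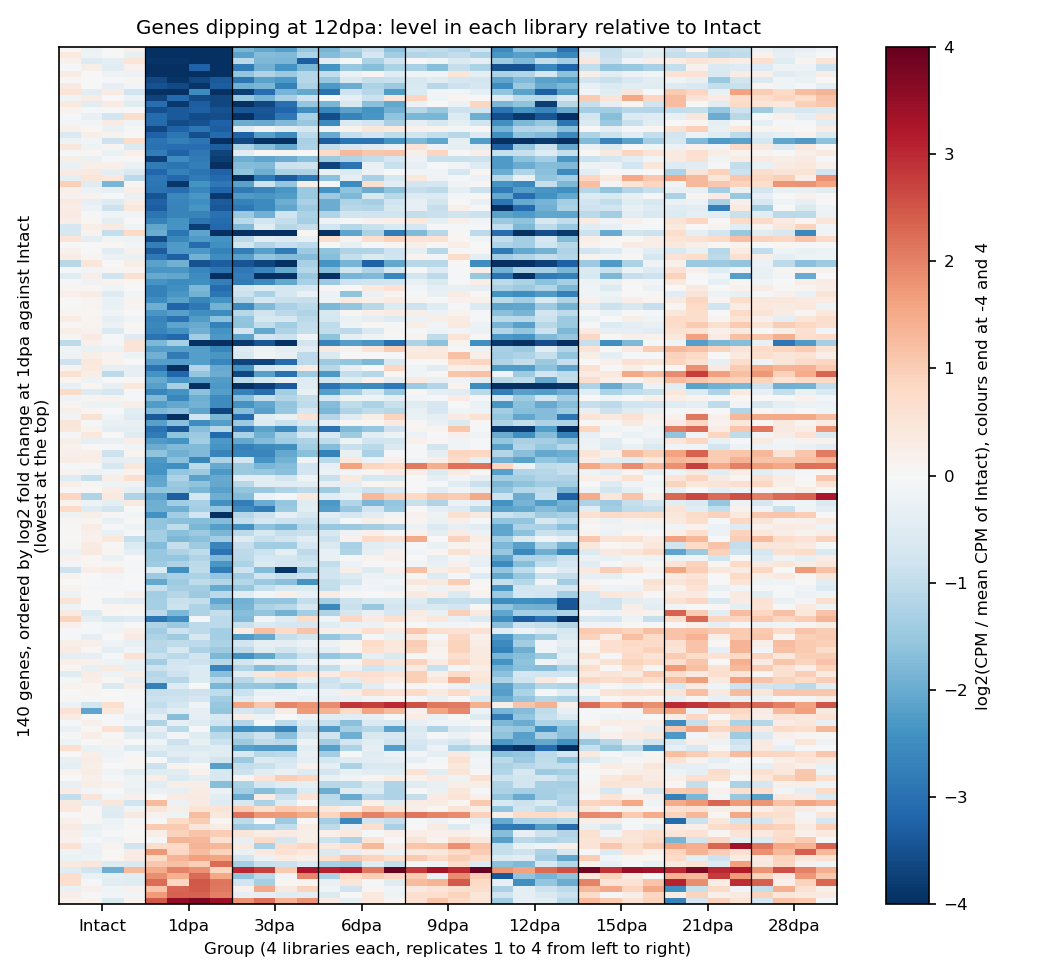
Level of each of the 140 genes (rows, ordered by the log2 fold change at 1dpa against Intact) in each of the 36 libraries (columns), as log2 of CPM over the mean CPM of Intact. Blue is below and red above Intact, and the 12dpa columns are blue for most rows, as are the 1dpa columns except at the foot, where the 13 genes higher at 1dpa are found.

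The same rule was applied around each other middle time point, which gave dips of 10 genes for 3dpa, 5 genes for 6dpa, 2 genes for 9dpa, 140 genes for 12dpa, 15 genes for 15dpa and 2 genes for 21dpa. Turned upwards, so that the middle group had at least 2 times the level of both neighbours, the rule gave 10 genes for 3dpa, 28 genes for 6dpa, 41 genes for 9dpa, 16 genes for 12dpa, 17 genes for 15dpa and 0 genes for 21dpa. Upwards, the 5 CPM were required of the middle group alone, so that dips and peaks draw on different genes. How many genes could have met the rule was counted for the dip at 12dpa only. The counts at 9 and 15dpa use the 12dpa libraries as a neighbour and are not separate from those at 12dpa.

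The member of highest mean CPM was LOC112557868, at 2233, 1409.9, 1237 and 2140.5 CPM in Intact libraries. It had 1386, 1053, 1735 and 1440.3 CPM at 9dpa, 233, 438, 486 and 687 CPM at 12dpa and 1024, 892, 1268 and 1117 CPM at 15dpa. As the rule requires, all 12dpa libraries were below all 9dpa and 15dpa libraries, and their mean was 26.3% of Intact. Its fall at 1dpa, which the rule did not use, was deeper still: 188, 280.2, 319 and 174 CPM at 1dpa, against the Intact values above, a log2 fold change of -2.92 ± 0.34 (SE, edgeR adjusted p = 5.98e-09). At 28dpa it had 1121, 1562, 1411 and 1752 CPM, and 3 of the 4 libraries were in the range of the Intact ones, a log2 fold change of -0.25 ± 0.32 (SE, edgeR adjusted p = 0.589), which did not pass the threshold of an adjusted p below 0.05.

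LOC112575863, the next in mean level, had 777, 528, 547 and 489.7 CPM at 9dpa, 269, 468, 192 and 227 CPM at 12dpa and 1043, 761, 1692 and 1219 CPM at 15dpa. Its 12dpa libraries were spread more than 2-fold, and lay below both neighbours as the rule requires. At 1dpa it had 79.8, 66.3, 80.7 and 67.1 CPM, against 450.2, 816, 772 and 277 CPM in Intact libraries, with a log2 fold change of -3.02 ± 0.38 (SE, edgeR adjusted p = 2.9e-08). At 3dpa it had 35.7, 81.3, 57.6 and 79.2 CPM, and no library of 1dpa or 3dpa reached the lowest Intact one, a log2 fold change of -3.16 ± 0.38 (SE, edgeR adjusted p = 2.11e-08). It was above Intact at 21dpa, at 1738, 1423, 809 and 1219 CPM, a log2 fold change of 1.17 ± 0.36 (SE, edgeR adjusted p = 0.00959), and its 21dpa libraries overlapped with the Intact ones in replicate 3 alone.

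LOC112558125 had 575, 378, 617 and 635 CPM at 9dpa, 250.4, 118, 68.5 and 71.8 CPM at 12dpa and 404, 310.2, 514 and 347 CPM at 15dpa. Replicate 1 was the highest at 12dpa, and the other 3 libraries were lower. The gene was higher at 21dpa, at 483, 917, 389 and 558 CPM, than in Intact libraries, at 132, 142, 87.5 and 188 CPM, a log2 fold change of 2.10 ± 0.40 (SE, edgeR adjusted p = 0.000103), and the 2 groups did not overlap. LOC112554245 had 459.6, 353, 329.8 and 214 CPM at 9dpa, 66.0, 100.003, 96.3 and 112 CPM at 12dpa and 336, 185, 220.5 and 241 CPM at 15dpa. At 1dpa it had 73.9, 85.9, 144 and 98.4 CPM, against 762, 317, 283 and 432 CPM in Intact libraries, and fell without overlap, a log2 fold change of -2.21 ± 0.46 (SE, edgeR adjusted p = 8.09e-05).

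The deepest dip, in percent of the lower neighbour, was that of LOC112554596, which kept 9.10%. It had 6.34, 6.36, 12.9 and 5.78 CPM at 9dpa, 0.412, 0.416, 1.25 and 0.364 CPM at 12dpa and 10.7, 5.27, 5.58 and 5.19 CPM at 15dpa. At 12dpa 3 libraries were close to each other and replicate 3 stood above them. It was higher at 21dpa, at 24.8, 28.3, 7.20 and 12.9 CPM, than in Intact, at 8.07, 6.46, 4.52 and 4.62 CPM, a log2 fold change of 1.63 ± 0.43 (SE, edgeR adjusted p = 0.00349), with overlap in 1 library, replicate 3.

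The next 4 in depth, LOC112569343, LOC112569364, LOC112569339 and LOC112569365, had similar courses over the libraries. LOC112569343 had 4.50, 5.46, 13.5 and 2.23 CPM at 9dpa, 0.761, 0.297, 0.783 and 0.828 CPM at 12dpa and 5.28, 3.06, 4.51 and 10.6 CPM at 15dpa. LOC112569365 had 10.9, 11.0, 24.1 and 4.24 CPM at 9dpa, 1.49, 1.34, 1.78 and 2.42 CPM at 12dpa and 8.63, 4.85, 9.75 and 20.4 CPM at 15dpa. All 4 genes were highest in replicate 4 at 3dpa, in replicate 3 at 9dpa and in replicate 1 at 21dpa, and LOC112569365 and LOC112569364 are overlapping neighbours. All 4 fell at 1dpa and at 3dpa. The largest of these falls at 1dpa was that of LOC112569339, with 3.96, 2.06, 3.62 and 0.104 CPM at 1dpa, against 9.81, 17.1, 8.07 and 27.1 CPM in Intact libraries, with a log2 fold change of -2.69 ± 0.86 (SE, edgeR adjusted p = 0.00572). At 3dpa the same gene had 0.848, 0.0381, 0.0326 and 15.9 CPM, so that replicate 4 alone was in the Intact range, a log2 fold change of -1.85 ± 0.77 (SE, edgeR adjusted p = 0.0377). That call was lost in 5 of the 8 fits that each left out 1 library, in a fit to only the groups compared (edgeR adjusted p = 0.172) and with DESeq2 (adjusted p = 0.0832). LOC112569343 was still below Intact at 21dpa, at 9.23, 2.83, 3.29 and 3.49 CPM, against 10.1, 13.2, 9.79 and 16.5 CPM in Intact libraries, with a log2 fold change of -1.40 ± 0.53 (SE, edgeR adjusted p = 0.0357), a call that was lost in 5 of the 8 fits that each left out 1 library.

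**Figure D3:**
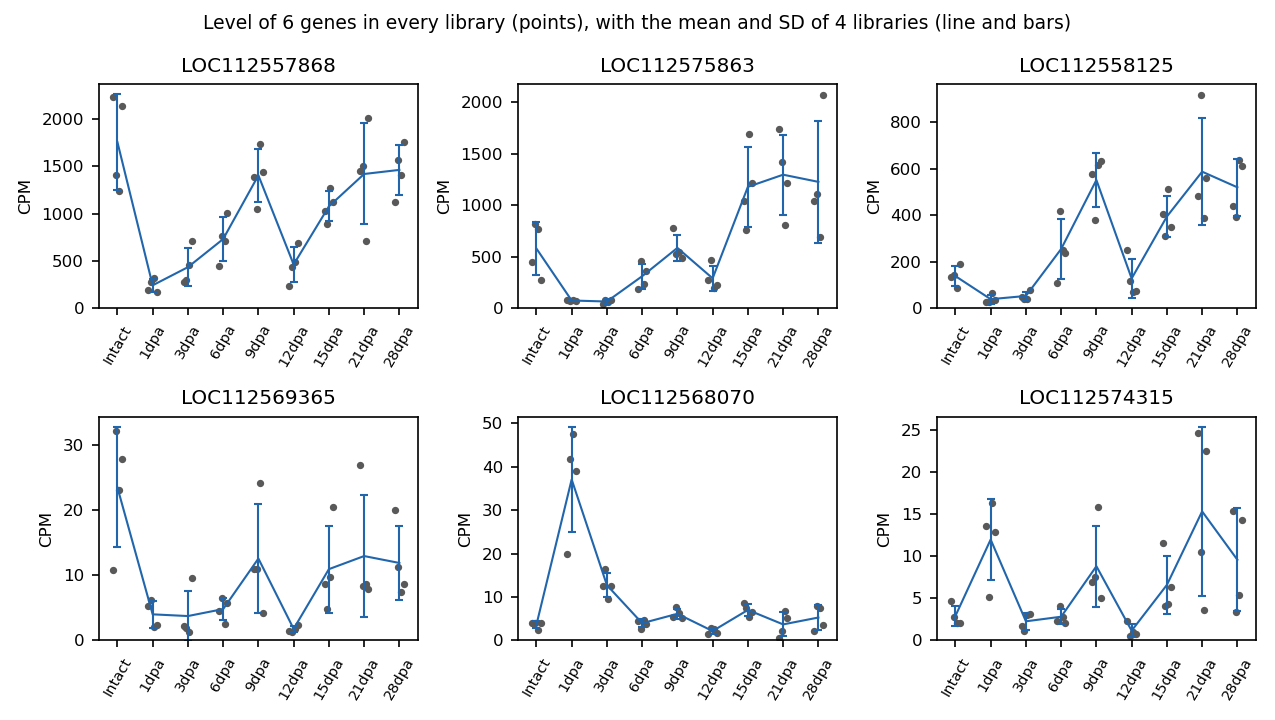
CPM of 6 of the genes in every library (points), with the mean and SD of 4 libraries per group (line and bars), on axes that start at 0 and differ between genes. Each gene is low at 12dpa between 9dpa and 15dpa, as the rule requires, and LOC112568070 has its highest level at 1dpa.

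At 1dpa most members were low, at a time the rule did not use. With an adjusted p below 0.05 in edgeR's quasi-likelihood test fitted to all 17341 genes tested, 111 of the 140 members (79.3%) were lower at 1dpa than in Intact, where 39.7% of all genes tested were, and 13 members (9.29%) were higher, where 37.2% of all genes tested were. Together 124 passed, where 76.9% of all genes tested did, and the other 16 did not. The median log2 fold change was -1.86 over the members and -0.05 over all genes tested. Scaling by library size alone moved the median of all genes at 1dpa to -0.24 and that of the members to -2.06.

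The largest falls at 1dpa were those of LOC112556454 and LOC112554411. LOC112556454 had 0.435, 0.526, 0 and 0.625 CPM at 1dpa, against 11.4, 9.60, 11.1 and 12.8 CPM in Intact libraries, with a log2 fold change of -4.85 ± 0.37 (SE, edgeR adjusted p = 3.71e-13). LOC112554411 had 1.09, 1.37, 1.36 and 1.09 CPM at 1dpa, against 36.1, 24.3, 28.0 and 22.8 CPM in Intact libraries, with a log2 fold change of -4.53 ± 0.24 (SE, edgeR adjusted p = 4.89e-17). The libraries of the 2 groups were far apart in both genes, and both were less low at 12dpa, at 23.8 and 19.5% of Intact. LOC112570613, with more CPM than these, had 17.8, 19.9, 21.3 and 18.3 CPM at 1dpa, against 225, 193, 193 and 207 CPM in Intact libraries, with a log2 fold change of -3.44 ± 0.23 (SE, edgeR adjusted p = 8.84e-15), and no libraries overlapped.

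The 13 members that were higher at 1dpa went the other way on the first day. Their dip at 12dpa was required by the rule, and 12dpa held the lowest of the 9 group means in 12 of them. That count is in part set by the choice: a rise at 1dpa leaves out 1dpa as the lowest group, and the rule leaves out 9dpa and 15dpa. LOC112568070 had 19.8, 41.8, 47.6 and 39.0 CPM at 1dpa, against 3.99, 3.95, 2.41 and 3.92 CPM in Intact libraries, with a log2 fold change of 3.32 ± 0.38 (SE, edgeR adjusted p = 2.98e-09), and all 4 libraries at 1dpa were above all Intact ones. It was still higher at 3dpa, at 12.5, 16.4, 9.45 and 12.5 CPM, a log2 fold change of 1.83 ± 0.38 (SE, edgeR adjusted p = 0.000111). Its dip was at 5.40, 7.64, 6.22 and 5.16 CPM at 9dpa, 1.36, 2.85, 2.63 and 1.69 CPM at 12dpa and 8.63, 7.41, 5.39 and 6.56 CPM at 15dpa. LOC112563449 had 163, 260.1, 260.0 and 204 CPM at 1dpa, against 59.96, 48.6, 46.2 and 46.4 CPM in Intact libraries, with a log2 fold change of 2.10 ± 0.20 (SE, edgeR adjusted p = 5.09e-11), again with no overlap. At 3dpa it had 40.4, 40.0, 36.1 and 36.9 CPM, all below the Intact libraries, a log2 fold change of -0.38 ± 0.20 (SE, edgeR adjusted p = 0.0904), which did not pass. At this time the gene passed in an edgeR fit to only the groups compared (edgeR adjusted p = 0.00586) and with DESeq2 (adjusted p = 0.0456). It had 29.0, 38.6, 33.7 and 27.7 CPM at 12dpa, the lowest of its group means. The remaining 11 had smaller log2 fold changes at 1dpa than LOC112563449, among them LOC112567851 with 57.9 CPM at 1dpa, against 13.6 CPM in Intact, and LOC112574553 with 31.9 CPM at 1dpa, against 9.08 CPM in Intact (group means).

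At 3dpa the members were still low but less so. Of the 140, 93 (66.4%) were lower than in Intact, where 32.4% of all genes tested were, 7 were higher, where 32.7% were, and 40 did not pass, so that 100 changed in either direction, where 65.1% of all genes tested did. This came with a median log2 fold change of -1.002 over the members and 0.01 over all genes tested. Set directly against 1dpa, 65 members were higher at 3dpa, where 28.9% of all genes tested were, and 15 were lower, where 26.6% were; 55.5% of all genes tested were called in either direction. The median log2 fold change of 3dpa over 1dpa was 0.72 over the members and 0.05 over all genes tested, and with scaling by library size alone 0.86 over the members and 0.19 over all genes tested. LOC112567225 had 5.13, 7.28, 7.46 and 6.71 CPM at 3dpa, against 1.001, 0.728, 0.951 and 0.521 CPM at 1dpa, with a log2 fold change of 3.10 ± 0.25 (SE, edgeR adjusted p = 7.16e-12). LOC112566724 had 55.1, 71.0, 60.2 and 73.7 CPM at 3dpa, against 7.31, 8.13, 9.42 and 10.4 CPM at 1dpa, with a log2 fold change of 2.95 ± 0.28 (SE, edgeR adjusted p = 2.07e-10). Neither gene had overlapping libraries, and LOC112567225 was back in its Intact range of 5.66 to 7.88 CPM in 3 of 4 libraries. The largest falls of 3dpa over 1dpa were those of LOC112563449, given above, and LOC112574315, which had 1.70, 1.14, 3.03 and 3.15 CPM at 3dpa, against 13.6, 5.09, 16.4 and 12.8 CPM at 1dpa, with a log2 fold change of -2.32 ± 0.57 (SE, edgeR adjusted p = 0.000851). Among the members higher at 3dpa was LOC112569003, with 7.37, 5.45, 5.31 and 4.59 CPM at 3dpa, against 1.63, 1.70, 1.14 and 2.09 CPM in Intact libraries, with a log2 fold change of 1.79 ± 0.32 (SE, edgeR adjusted p = 1.31e-05), without overlap.

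**Figure D4:**
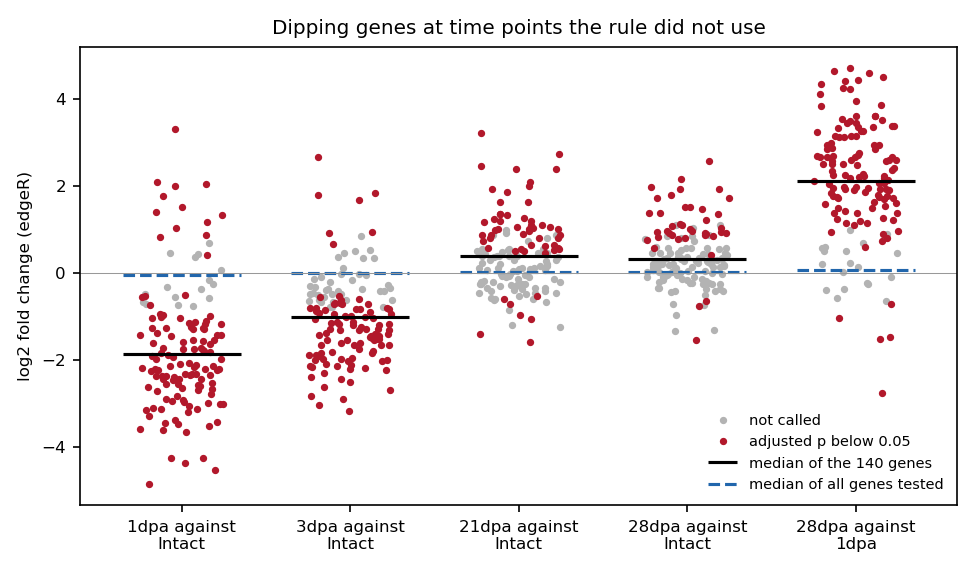
Log2 fold changes of the 140 genes (points, 1 per gene) in 5 comparisons of groups whose levels at 1, 3, 21 and 28dpa the rule did not use, with the medians over the 140 genes (black lines) and over all genes tested (blue lines). Red points had an adjusted p below 0.05, and the black line is at -1.86 for 1dpa and at 0.31 for 28dpa, both against Intact.

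At the last time points the median over the members was above Intact, and the members went both ways. At 21dpa 48 members (34.3%) were higher than in Intact, where 20.6% of all genes tested were, 7 (5%) were lower, where 18.7% were, and 85 did not pass, so that 55 were called in either direction, where 39.3% of all genes tested were. The median log2 fold change was 0.39 over the members and 0.03 over all genes tested. This count moved to 36 members called in either direction, against 55, without Intact replicate 4, when 34.1% of all genes tested were called. With scaling by library size alone the split moved to 35 higher and 12 lower. The split of all genes tested then moved too, to 13.6% higher and 25.9% lower. At 28dpa 37 members (26.4%) were higher, where 14.9% of all genes tested were, 3 were lower, where 14.9% were, and 100 did not pass, so that 40 were called in either direction, where 29.8% of all genes tested were, with a median log2 fold change of 0.31 over the members and 0.02 over all genes tested. Without Intact replicate 4, 26 members were called at 28dpa in either direction, against 40 with all libraries, and 26.3% of all genes tested were. Scaling by library size alone moved the median over all genes to -0.09 at 21dpa and -0.12 at 28dpa, and the median over the members to 0.27 at 21dpa and 0.17 at 28dpa, which leaves the members above all genes at both times.

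LOC112554762 had the largest rise at 28dpa, with 46.6, 55.1, 59.2 and 108 CPM at 28dpa, against 21.1, 4.98, 15.0 and 5.02 CPM in Intact libraries, with a log2 fold change of 2.57 ± 0.49 (SE, edgeR adjusted p = 0.000174). The Intact libraries were spread from 4.98 to 21.1 CPM and still lay below every 28dpa library. LOC112565444, at 4.15, 6.91, 4.16 and 4.599 CPM at 21dpa, against 0.388, 0.295, 0.132 and 1.25 CPM in Intact libraries, had the largest rise at 21dpa, with a log2 fold change of 3.22 ± 0.52 (SE, edgeR adjusted p = 9.37e-06). LOC112573791 had 17.7, 16.8, 13.6 and 11.2 CPM at 21dpa, against 1.90, 1.37, 3.55 and 2.20 CPM in Intact libraries, with a log2 fold change of 2.75 ± 0.31 (SE, edgeR adjusted p = 2.09e-08), without overlap. At the other end, LOC112569356 had the largest fall at 28dpa, to 14.8, 5.77, 5.03 and 7.81 CPM at 28dpa, against 21.4, 22.5, 13.7 and 39.9 CPM in Intact libraries, with a log2 fold change of -1.53 ± 0.50 (SE, edgeR adjusted p = 0.0202). Its replicate 1 at 28dpa overlapped with Intact replicate 3, and the call was lost in 3 of the 8 fits that each left out 1 library. It also had the largest fall at 21dpa, to 15.0, 7.10, 5.06 and 5.50 CPM, a log2 fold change of -1.58 ± 0.50 (SE, edgeR adjusted p = 0.0129), which did not pass without Intact replicate 4 (edgeR adjusted p = 0.0661). LOC112570613 had 76.9, 132, 129 and 138 CPM at 28dpa and remained below every Intact library, a log2 fold change of -0.76 ± 0.20 (SE, edgeR adjusted p = 0.00433). LOC112565703 had 8.20, 5.29, 5.47 and 9.49 CPM at 28dpa, against 14.0, 10.6, 10.2 and 10.1 CPM in Intact libraries, with a log2 fold change of -0.64 ± 0.19 (SE, edgeR adjusted p = 0.0117), a difference that no longer passed without 28dpa replicate 2, with an edgeR adjusted p of 0.0615.

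Between 28dpa and 21dpa edgeR called 1 member in either direction, where 0.917% of all genes tested were called, and 9 members (6.43%) had an unadjusted p below 0.05, where 11.8% of all genes tested had. Without 21dpa replicate 3, 29 members (20.7%) had an unadjusted p below 0.05, where 10.3% of all genes tested had. The 1 member was LOC112554411, which had 31.0, 22.1, 24.0 and 26.7 CPM at 28dpa, against 14.4, 15.4, 13.0 and 13.6 CPM at 21dpa, with a log2 fold change of 0.89 ± 0.18 (SE, edgeR adjusted p = 0.0106). No libraries overlapped, and the call was lost when replicate 3 of 21dpa was left out (edgeR adjusted p = 0.0552), and likewise replicate 4 (edgeR adjusted p = 0.0655). Set against 1dpa, 116 members (82.9%) were higher at 28dpa, where 39.6% of all genes tested were, and 5 were lower, where 35.8% were; 75.4% of all genes tested were called in either direction. The median log2 fold change of 28dpa over 1dpa was 2.13 over the members and 0.07 over all genes tested. LOC112553834 had 38.8, 33.2, 46.6 and 50.2 CPM at 28dpa, against 1.26, 0.768, 3.44 and 1.25 CPM at 1dpa, with a log2 fold change of 4.72 ± 0.51 (SE, edgeR adjusted p = 1.14e-09). LOC112559268 had 16.2, 7.40, 11.3 and 15.4 CPM at 28dpa, against 0.696, 0.687, 0.227 and 0.417 CPM at 1dpa, with a log2 fold change of 4.66 ± 0.45 (SE, edgeR adjusted p = 7.83e-11). In both genes the groups were far apart.

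The members were described by their place in the genome as well. RefSeq's table of genes for ASM307304v1 was used for names and neighbours only. In it all 140 were placed, on all 14 linkage groups, and 36 of them (25.7%) lay on 1 linkage group, which holds 517 of the 11768 genes that could have met the rule (4.39%). Of these 517 genes 6.96% were members, against 0.924% over the other linkage groups and at most 1.93% on any other single linkage group. With each run of neighbouring members counted once, 31 of 120 units (25.8%) lay on it. Only direct neighbours were merged, so that LOC112569343, LOC112569339, LOC112569356 and LOC112569358, similar in course to LOC112569365, still counted as separate units. The units are therefore not all separate measurements. When at most 33.3% of both neighbours was allowed at 12dpa, 15 of 37 genes (40.5%) did, and with scaling by library size alone 43 of 183 (23.5%). Of the genes found by the same rule around other time points, those on it were 1 of 10 dips for 3dpa, 1 of 5 for 6dpa, 0 of 2 for 9dpa, 2 of 15 (13.3%) for 15dpa and 1 of 2 for 21dpa. Of the peaks, 0 of 10 for 3dpa, 0 of 28 for 6dpa, 7 of 41 (17.1%) for 9dpa, 0 of 16 for 12dpa and 7 of 17 (41.2%) for 15dpa lay on it, and the peaks at 9dpa and 15dpa were set against the 12dpa libraries. Of the 5 deepest members 4 did: LOC112569343, LOC112569364, LOC112569339 and LOC112569365.

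On that linkage group the median log2 ratio of 12dpa to the mean of 9dpa and 15dpa was -1.63 over the 36 members, against -1.33 over the 104 elsewhere, and -0.18 over the 517 genes that could have met the rule, against 0.04 over the 11251 elsewhere. The rule chose the members on these same levels, and the linkage group was picked for its share of members, whom the 517 genes include. These ratios are therefore in part set by the choice. At 1dpa, which the rule did not use, 25 of the 36 (69.4%) were lower than in Intact, against 86 of the 104 elsewhere (82.7%), with median log2 fold changes of -1.86 in both. Of the genes that could have met the rule, 37.9% on that linkage group and 35.8% elsewhere were lower at 1dpa. At 28dpa 3 of the 36 (8.33%) were higher than in Intact, against 34 of the 104 elsewhere (32.7%), with median log2 fold changes of 0.14 against 0.42. Of the genes that could have met the rule, 18.8% on that linkage group and 16.0% elsewhere were higher at 28dpa. These differences between sets of genes were not tested.

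Members also lay next to each other: 33 had another member as a direct neighbour, in 13 runs of 2 to 6 genes. The longest run held LOC112557064, LOC112557909, LOC112557061, LOC112557066, LOC112557056 and LOC112557068. It lay in a stretch of 51 neighbouring genes that held 10 members among 33 genes that could have met the rule, among them LOC112557868 and LOC112557062, which overlap, and LOC112556454 and LOC112557069. Of the run, LOC112557064 had 93.8, 72.2, 105 and 67.9 CPM at 9dpa, 22.0, 17.5, 37.0 and 28.9 CPM at 12dpa and 76.7, 53.9, 60.5 and 65.0 CPM at 15dpa. All 6 were lower at 1dpa than in Intact, by edgeR adjusted p values between 7.96e-13 and 0.00327, and LOC112557064, LOC112557909, LOC112557056 and LOC112557068 were higher at 28dpa than in Intact. Without Intact replicate 4, LOC112557064 alone of these passed.

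A run of 4 held LOC112565101, LOC112565066, LOC112565065 and LOC112565067, which shared their order of libraries at 12dpa. LOC112565101 had 11.1, 21.8, 49.5 and 37.8 CPM at 12dpa and LOC112565066 had 4.02, 9.11, 21.9 and 17.9 CPM at 12dpa. LOC112565065 had 3.74, 6.501, 17.7 and 13.9 CPM at 12dpa and LOC112565067 had 1.43, 2.37, 8.57 and 6.23 CPM at 12dpa. Replicate 1 was the lowest and replicate 3 the highest in all 4. A run of 3 held LOC112560506, LOC112560514 and LOC112560519, and of these LOC112560514 had 245, 176, 228 and 201 CPM at 9dpa, 64.7, 57.5, 123 and 101 CPM at 12dpa and 207, 172, 204 and 198 CPM at 15dpa. Genes that overlap, as 2 pairs in the run of 6 and 1 pair in each of the other 2 runs do, and near-identical copies can share counts, and the strand setting of the counting is not given in the sources used here, so that members of a run are not separate measurements.

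**Figure D5:**
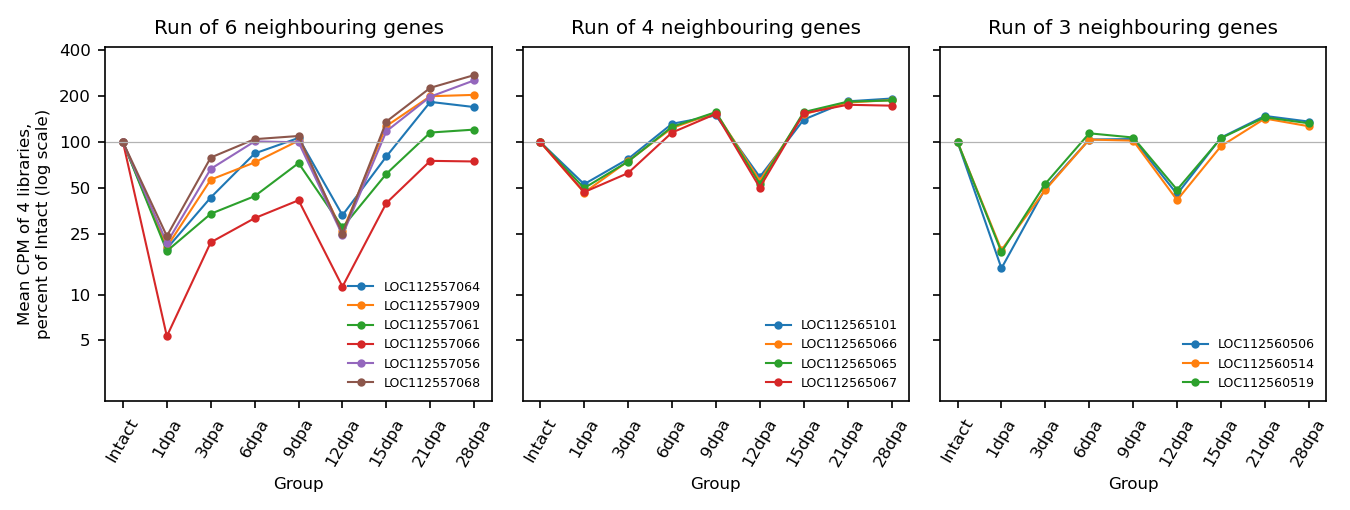
Mean level of 4 libraries in percent of Intact, on a log scale, by group in order of time, for the 3 longest runs of neighbouring members (6, 4 and 3 genes, 1 line per gene). Every line goes down at 12dpa, as the rule requires of each member.

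Within the 12dpa group the members' depth differed between libraries. The lowest of the 4 libraries was replicate 1 in 56 members, replicate 2 in 31, replicate 3 in 15 and replicate 4 in 38, and the highest library had a median of 1.91 times the level of the lowest (range 1.05 to 12.9). In 55 members the mean over groups was below 10 CPM, and the lowest mean count of a member at 12dpa was 18.25 reads. Counting error therefore adds to the spread of such low members. The widest range was not in a low member but in LOC112557062, which is among the members of highest mean CPM. It had 411, 1566, 2961 and 5070 reads at 12dpa, or 13.0, 46.5, 105 and 168 CPM. The cause of its spread was not tested.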

How the data were processed

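The members of the set, the comparisons and the rule for named genes were chosen with earlier results of these data known. Groups and replicate numbers were taken from the labels, which give day 6 where the design text gives day 7. The authors deposited raw read counts per gene, 1 table for 36 libraries; STAR is named as aligner per the submitters' processing notes. Not given in the sources used here are its version, build, annotation, strand setting and handling of multi-mapping reads. Of 21131 genes, 615 had no count and 19622 had a summed count of at least 10; on these, CPM were computed with TMM factors (edgeR 4.0.16, limma 3.58.1, R 4.3.3). The filterByExpr rule left 17341 genes, among them all 140 members, for 1 quasi-likelihood model (glmQLFit, robust, legacy off) over all libraries and 7 comparisons, 2-sided, with Benjamini-Hochberg adjustment over all genes tested and a threshold of 0.05. Standard errors of log2 fold changes come from the F statistic. The procedure was tested on simulated data. No pair of libraries of a group agreed within sampling noise (lowest chi-square per degree of freedom 10.2 in 54 pairs).

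All identifiers matched a RefSeq gene table of ASM307304v1, which gives no product names, so that lists by product name could not be applied. Since the files' build is not named, no coordinates are given. Named members were the 5 of highest mean CPM, the 5 of deepest dip, for each comparison up to 2 of the largest called changes in each direction (edgeR adjusted p below 0.05, a higher group mean of at least 5 CPM, and libraries that did not overlap), those nearest the limit on both sides, the 2 lowest and 2 highest ratios of 1dpa to Intact, and the 3 longest runs of neighbours. The 3 members at or above Intact at 12dpa, LOC112569356, LOC112569358, LOC112567851, LOC112574553 and LOC112557069 were named after their values were seen. Alternatives were RLE or library-size scaling, other filters, DESeq2 1.42.0, limma-voom, fits to fewer groups or with the replicate number as a term, thinned libraries, other limits of the rule and each library left out.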

Additional observations from a re-analysis of the deposited data

Results flagged for a closer look

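Among the 414 groups of 4 values looked at (45 named genes and the summed level of the members, in 9 groups each), 29 (7.00%) held a library set far apart from the other 3, measured by its gap to the nearest value over the range of the group. Chance alone gives about 1 in 20 groups, and no cause was tested for any of them.

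The summed level of the 140 members in 21dpa replicate 3 was 6684 CPM, where the other 3 libraries lay between 10545 and 10646 CPM. The mean of 21dpa is 9624 CPM with it and 10603 CPM without it. Without that library 64 members were called at 21dpa against Intact, 54 higher and 10 lower, where 35.1% of all genes tested were called, 19% higher and 16.2% lower. In the same library LOC112564733, just outside the rule, had 28.8 CPM, with the other 3 libraries between 42.5 and 44.2 CPM.

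In 3dpa replicate 4, 4 of the 5 deepest members stood above the rest of their group. LOC112569343 had 8.94 CPM, with the other 3 libraries between 0.771 and 1.21 CPM. LOC112569364 had 6.92 CPM, with the other 3 libraries between 0.749 and 1.07 CPM. LOC112569339 had 15.9 CPM, with the other 3 libraries between 0.0326 and 0.848 CPM. LOC112569365 had 9.55 CPM, with the other 3 libraries between 1.34 and 2.16 CPM. These genes lie on 1 linkage group, and 3 of them were also set apart in 21dpa replicate 1. There LOC112569343 had 9.23 CPM, with the other 3 libraries between 2.83 and 3.49 CPM. LOC112569364 had 10.2 CPM, with the other 3 libraries between 2.49 and 3.57 CPM. LOC112569365 had 26.9 CPM, with the other 3 libraries between 7.80 and 8.65 CPM.

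Within the groups that chose the members, LOC112554596 had in 9dpa replicate 3 12.9 CPM, with the other 3 libraries between 5.78 and 6.36 CPM. In 12dpa replicate 3 it had 1.25 CPM, with the other 3 libraries between 0.364 and 0.416 CPM. In 15dpa replicate 1 it had 10.7 CPM, with the other 3 libraries between 5.19 and 5.58 CPM. LOC112569343 in 12dpa replicate 2 had 0.297 CPM, with the other 3 libraries between 0.761 and 0.828 CPM. LOC112567225 in 12dpa replicate 3 had 4.84 CPM, with the other 3 libraries between 3.51 and 3.71 CPM. LOC112569339 in 15dpa replicate 2 had 3.86 CPM, with the other 3 libraries between 8.56 and 9.37 CPM.

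In Intact libraries, LOC112568070 had in replicate 3 2.41 CPM, with the other 3 libraries between 3.92 and 3.99 CPM, and LOC112565703 had in replicate 1 14.0 CPM, with the other 3 libraries between 10.1 and 10.6 CPM. In 21dpa replicate 2, LOC112556454 had 11.8 CPM, with the other 3 libraries between 5.50 and 6.37 CPM, and LOC112565444 had 6.91 CPM, with the other 3 libraries between 4.15 and 4.599 CPM. In 28dpa replicate 1, LOC112563449 had 95.3 CPM, with the other 3 libraries between 65.6 and 68.4 CPM. In the same library LOC112570613 had 76.9 CPM, with the other 3 libraries between 129 and 138 CPM, and LOC112565101 had 69.0 CPM, with the other 3 libraries between 108 and 108 CPM. In 28dpa replicate 4, LOC112557061 had 22.5 CPM, with the other 3 libraries between 33.7 and 35.3 CPM, and its run neighbour LOC112557068 had 11.7 CPM, with the other 3 libraries between 14.1 and 14.3 CPM.

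The genes added after their values were seen had 5 such values. LOC112569356 in 3dpa replicate 4 had 9.86 CPM, with the other 3 libraries between 0.763 and 1.97 CPM, and in 9dpa replicate 3 it had 18.9 CPM, with the other 3 libraries between 5.22 and 7.05 CPM. This gene lies on the same linkage group as 4 of the 5 deepest members. LOC112574553 in Intact replicate 1 had 14.9 CPM, with the other 3 libraries between 6.67 and 7.60 CPM. In 3dpa replicate 4 it had 34.8 CPM, with the other 3 libraries between 3.05 and 8.44 CPM, and in 21dpa replicate 3 it had 63.1 CPM, with the other 3 libraries between 22.8 and 29.3 CPM.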

How the results depend on the processing

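With 10 CPM in place of 5 at both neighbours the rule found 88 genes, and with at most 33.3% left at 12dpa 37, of which 40.5% lay on the linkage group with most members. The upward rule found 16 at 12dpa. Applied around other time points, a choice made after seeing the data, the rule found 10 genes for 3dpa, 5 genes for 6dpa, 2 genes for 9dpa, 15 genes for 15dpa and 2 genes for 21dpa. Leaving out 1 library of 9, 12 or 15dpa gave 126 to 200 members, and the median ratio of 12dpa to the mean of its neighbours stayed between 0.361 and 0.405 when a 12dpa library was left out. Of the other alternatives, RLE scaling gave 146 genes, library size alone 183, 2 CPM 200, no condition at 6dpa 141 and overlap allowed 181.

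Leaving out each library in turn gave, against Intact, 118 to 122 members called for 1dpa and 97 to 106 for 3dpa. It gave 36 to 64 for 21dpa and 26 to 37 for 28dpa. Of all genes tested, these fits called 74.6 to 75.1%, 61.6 to 63.7%, 33.4 to 37.5% and 25.2 to 27.6%, in the same order. Against 1dpa, leaving out each library gave 67 to 76 members for 3dpa and 115 to 121 for 28dpa. For 28dpa against 21dpa it gave 0 to 1. The shares of all genes tested were 51.9 to 54.2%, 72.8 to 73.7% and 0.12 to 1.42%. The lowest counts at 21dpa and 28dpa were those without Intact replicate 4. A fit to only the groups compared called 0 members at 28dpa against 21dpa, where LOC112554411 had an edgeR adjusted p of 0.0647. DESeq2 and limma-voom called 1 each. Of all genes tested, the fit to only the groups compared called 0%, DESeq2 2% and limma-voom 1.87%. At 21dpa limma-voom called 78 members, 59 higher and 19 lower, and 45.9% of all genes tested, 24.5% higher and 21.4% lower. For 59 pairs of a named gene and a comparison, 1032 of 1062 alternatives kept direction and call, none reversed, 28 lost the call and 2, both for LOC112563449 at 3dpa, gained it. The 28 were in 9 pairs, of LOC112569339 at 3dpa, LOC112569343 and LOC112569356 at 21dpa, LOC112557056, LOC112557068, LOC112557909, LOC112565703 and LOC112569356 at 28dpa, each against Intact, and LOC112554411 at 28dpa against 21dpa. The older quasi-likelihood fit, also added after seeing the data, lost LOC112569343 at 21dpa (edgeR adjusted p = 0.067) and LOC112569339 at 3dpa (edgeR adjusted p = 0.0811).

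Libraries of different groups share only a replicate number: correlations of same-numbered deviations lay between -0.213 and 0.174, and no comparison had all above 0.1. In 3dpa against Intact 4 of 8 libraries correlated best with their own number, the most of any comparison. With the replicate number as a block, 124 members were called for 1dpa, 100 for 3dpa, 55 for 21dpa and 40 for 28dpa, each against Intact. Of all genes tested, 76.9, 65.1, 39.3 and 29.7% were called. The block fit called 80 for 3dpa and 120 for 28dpa against 1dpa, and 1 for 28dpa against 21dpa. The shares of all genes tested were 55.5, 75.3 and 0.957%. Depth limits members of few CPM, where 1 CPM is as few as 19.2 counts.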
